A study of Homo sapiens with 21 samples.

Results

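HOX genes are the 39 human homeobox genes matched by a symbol of the form HOX, a cluster letter from A to D and a number, and 36 of them were among the 42339 genes counted in 21 RNA-seq libraries of BT-549 triple-negative breast cancer (TNBC) cells. The members were matched by symbol and comprised 11 of 11 annotated HOXA genes on chromosome 7, 9 of 10 HOXB genes on chromosome 17, 9 of 9 HOXC genes on chromosome 12 and 7 of 9 HOXD genes on chromosome 2 (GENCODE release 44, GRCh38). HOXB1, HOXD4 and HOXD11 were not analysed here. The study asked how the MUC1-C oncoprotein shapes gene expression in BT-549 cells selected for growth as mammospheres, a culture enriched for cancer stem cells (CSCs). The 21 libraries fell into 7 groups of 3 cultures. The groups were monolayer cells in serum-containing medium (2D), untreated mammospheres at serial passage 6 in serum-free medium (3D), and passage 6 mammospheres given GO-203 at 0.75 μM, a peptide inhibitor directed at the MUC1-C cytoplasmic domain. The others were mammospheres of the tet-MUC1shRNA line at passage 6 and of the tet-MYCshRNA line at passage 8, each given 0.1% DMSO as vehicle or 500 ng/ml doxycycline (DOX), which switches on the shRNA. All groups derive from 1 cell line of wild-type genotype in the labels, each tet line expresses 1 shRNA, and the effect of DOX itself cannot be told apart from that of the shRNA. Culture format and medium change together between 2D and 3D cells, and line and passage change together between the tet lines.

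HOX proteins are homeodomain transcription factors that specify position along the body axis. The 4 clusters arose by duplication, so that genes with the same number are paralogs, and within a cluster low numbers lie at the 3′ end and are used anteriorly whereas high numbers lie at the 5′ end and are used posteriorly. HOX proteins bind DNA together with TALE homeodomain partners of the PBX, MEIS and PKNOX families, their clusters are classical targets of Polycomb repression and of activation by MLL (trithorax) complexes and retinoic acid, and adult cells, including breast epithelium and its tumors, keep cell-type-specific HOX patterns.

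The labelled cell type was checked against its markers. VIM, a mesenchymal intermediate filament, averaged 1095 to 2463 CPM (counts relative to library size, scaled by TMM factors over the 21 libraries) in the 7 groups, whereas the epithelial markers EPCAM and KRT19 averaged at most 0.0458 CPM, KRT18 at most 0.886, KRT8 at most 1.34 (both in MUC1-silenced cells) and CDH1 at most 1.42 CPM (in 2D cells). Of the receptor genes, ESR1 and PGR averaged at most 0.967 and 0.0376 CPM, and ERBB2 was at 18.4 to 42.0 CPM in the single libraries. Of the markers of other cell types, CD3E (T cells) and CDH5 (endothelium) averaged at most 0.0348 CPM in any group. PECAM1, an endothelial adhesion molecule, averaged 0.0114 CPM in 2D and 6.77 CPM in 3D cells, and PTPRC (leukocytes) 1.25 and 0.0632 CPM. Library totals ran from 38026597 to 99751717 counts, of which HOX genes took 6138 to 21268. In bulk samples, a change in the share of cells that express a gene and a change in RNA per cell cannot be told apart. The targeted genes fell in their lines. MUC1 averaged 90.3 ± 9.64 CPM with vehicle and 21.4 ± 1.81 CPM with DOX (SD, n = 3 each; log2 fold change -2.06, adjusted p = 3.0e-15 by edgeR's quasi-likelihood test), and MYC 414 ± 26.6 and 273 ± 27.2 CPM (log2 fold change -0.62, adjusted p = 9.1e-05, edgeR). The MYC transcript therefore remained above its 2D level of 85.3 ± 6.28 CPM after DOX.

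A change was called at an adjusted p below 0.1 from edgeR's quasi-likelihood test, adjusted over all genes tested, and was called past both thresholds where the absolute log2 fold change was also above 1.5. Of the 36 HOX genes, 26 passed the filter on low counts in at least 1 of the 4 comparisons, and a gene that passed only through its higher group had to differ. The remaining 10 (HOXA2, HOXA4, HOXA6, HOXA7, HOXD1, HOXD3, HOXD9, HOXD10, HOXD12 and HOXD13) reached at most 0.209 CPM and 19 counts in any library.

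The HOX genes in use in these cells were mainly those of the HOXC and HOXB clusters, with HOXA9 as the leading HOXA gene. In 2D cells, HOXC genes took 66.1% ± 1.13 of the summed HOX CPM (SD, n = 3), HOXB genes 20.4% ± 0.528, HOXA genes 13.5% ± 0.927 and HOXD genes 0.0240% ± 0.0249. In 3D cells the order was HOXB (53.3% ± 1.5), HOXC (36.6% ± 1.83) and HOXA (10.0% ± 1.04), without overlap between the groups for HOXB and HOXC. The summed level of the HOXC cluster was 172 CPM on average in 2D, 57.3 in 3D and 68.3 in GO-203-treated 3D cells. It was 105 with vehicle and 70.0 with DOX in the tet-MUC1shRNA line, and 92.4 and 146 in the tet-MYCshRNA line. HOXB sums ran from 53.2 CPM in 2D to 94.1 CPM in vehicle-treated tet-MYCshRNA cells, and HOXA sums from 9.44 CPM in MUC1-silenced to 35.1 CPM in 2D cells. Thus 2D cells had the highest HOXC and HOXA sums and the lowest HOXB sum of the 7 groups.

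**Figure D1:**
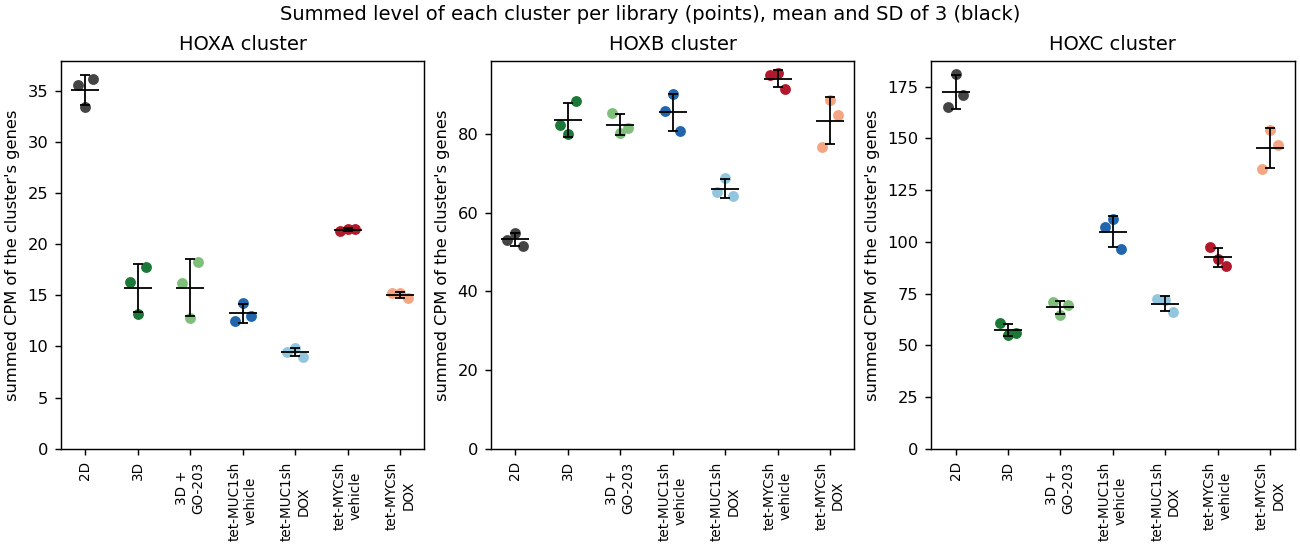
Summed CPM of the HOXA, HOXB and HOXC genes (vertical axes, from 0) in each of the 21 libraries (points) by condition, with the mean and SD of 3 libraries in black. HOXC sums average 172 CPM in 2D and 57.3 in 3D cells, fall from 105 to 70.0 with DOX in the tet-MUC1shRNA line and rise from 92.4 to 146 in the tet-MYCshRNA line.

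Per kilobase of exon, which allows genes to be compared with one another, HOXC10 was the highest HOX gene in 2D cells at 22.3 CPM per kb (libraries 20.1 to 24.7), followed by HOXC8 at 18.6 (17.8 to 19.4). HOXC6 (8.94 to 10.2), HOXC9 (8.01 to 10.2) and HOXA9 (8.14 to 8.99) came next and overlapped one another, as did HOXB2 (6.94 to 7.78) and HOXB4 (6.62 to 7.08). In 3D cells the first place went to HOXB2 at 12.1 CPM per kb (10.9 to 14.0), and HOXB4 (9.02 to 9.44), HOXC10 (8.39 to 9.86) and HOXC8 (7.64 to 8.61) followed, with HOXC10 overlapping both of its neighbours. HOXA9 was the leading HOXA gene in each of the 7 groups. The HOXD cluster was nearly silent. HOXD8 averaged at most 0.793 ± 0.194 CPM (SD, n = 3, DOX-treated tet-MYCshRNA cells), and HOXD13, named for its mean CPM over all libraries, never passed 0.209 CPM in a library and had 0 counts in all 2D libraries.

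**Figure D2:**
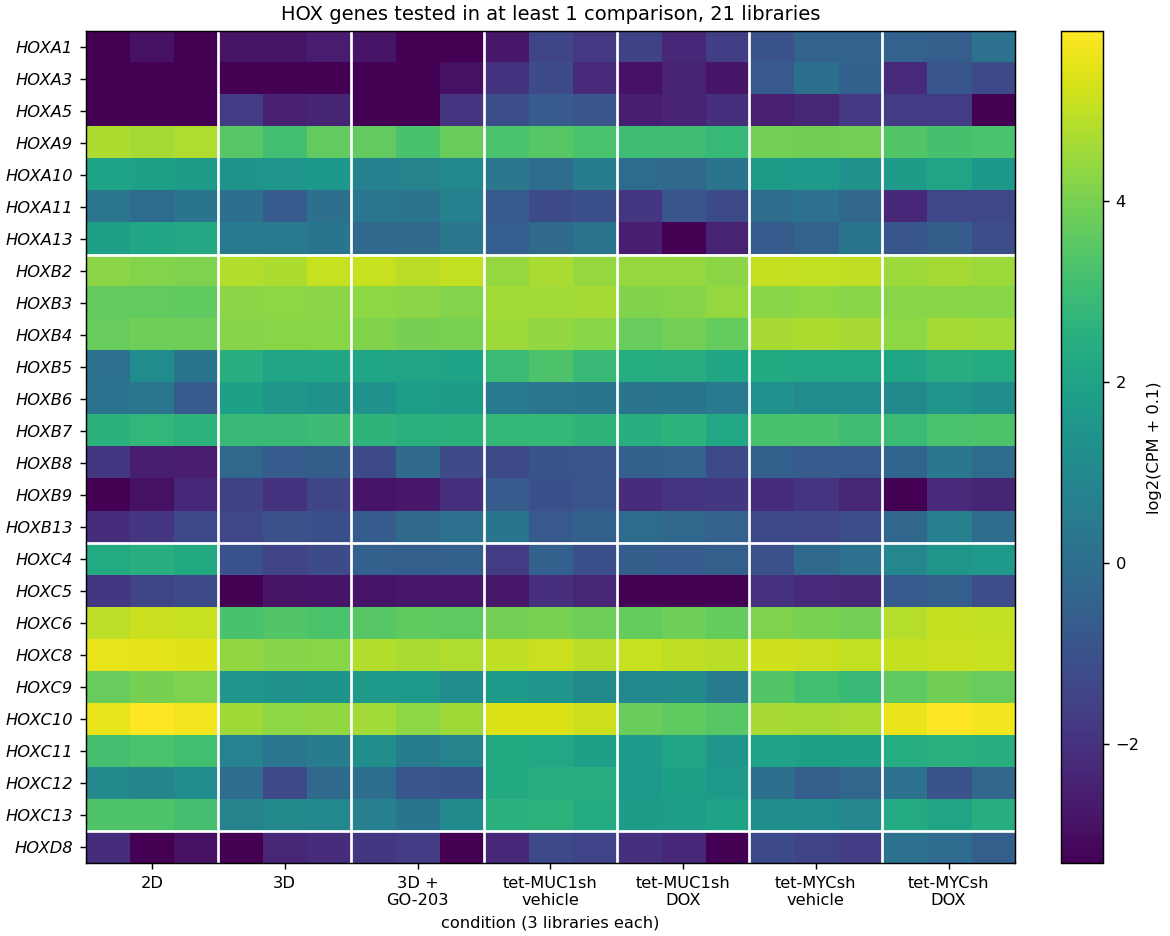
Level of the 26 HOX genes tested in at least 1 comparison (vertical axis, by cluster and number) in 21 libraries (horizontal axis, 3 per condition), as log2(CPM + 0.1) in color. The 3 libraries of a condition look alike, HOXC10, HOXC8, HOXB2 and HOXA9 are bright throughout, and the HOXC block is brightest in 2D and in DOX-treated tet-MYCshRNA cells.

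The first question was how HOX expression differs between 3D and 2D cells. All tested HOXC genes and most HOXA genes fell, and most HOXB genes rose. Of 20 HOX genes tested, 11 were lower in 3D cells (31.7% of all genes tested were) and 7 were higher (32.0% of all genes). All 8 tested HOXC genes fell, from -1.21 for HOXC8 to -3.90 for HOXC4 on the log2 scale, with a median of -2.11. Of 8 tested HOXB genes, 7 rose, by 0.24 for HOXB7 to 2.57 for HOXB8, with a median over the 8 of 0.73. Of 4 tested HOXA genes, 3 fell. HOXA11 (log2 fold change -0.33, adjusted p = 0.354) and HOXB13 (0.75, adjusted p = 0.195, both edgeR) did not pass. The median over all genes tested was -0.01. No HOXC or HOXA gene was higher and no HOXB gene lower by edgeR, also at an unadjusted p below 0.05 and by DESeq2, where these counts were likewise 0. Past both thresholds, 7 HOX genes were lower (9.29% of all genes) and 3 higher (6.90% of all genes).

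Among the HOXC genes, HOXC4, the most anterior member of its cluster, was counted at 4.86, 5.49 and 4.73 CPM in 2D and at 0.394, 0.273 and 0.341 CPM in mammospheres, a log2 fold change of -3.90 (SE 0.22, adjusted p = 1.8e-10, edgeR). HOXC6, the strongest central HOXC gene after HOXC8, was at 30.9, 35.4 and 34.5 CPM in 2D and at 9.30, 10.5 and 9.51 CPM in 3D cells (log2 fold change -1.79, SE 0.09, adjusted p = 2.5e-11, edgeR). The 2D and 3D libraries were far apart for both genes, and the spread within a group was small beside the difference. In the annotation, 17.5% of the exon bases of HOXC4 and 16.1% of those of HOXC6 are shared with other transcripts on the same strand, including each other, so their counts are not fully separate.

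The posterior HOXC genes also fell without overlap. HOXC9 was at 13.3, 15.6 and 17.0 CPM in 2D and 2.72, 2.48 and 2.62 CPM in 3D cells (log2 fold change -2.56, SE 0.13). HOXC11 was at 8.80, 9.42 and 8.36 CPM against 1.58, 1.13 and 1.36 CPM (-2.71, SE 0.16), and HOXC13, a gene known for its part in hair and nail keratin expression, at 10.1, 10.0 and 8.77 CPM against 1.62, 1.89 and 1.84 CPM (-2.43, SE 0.14). These 3 genes thus lost most of their 2D level. HOXC12 was low throughout, at 1.91, 1.74 and 2.05 CPM against 0.872, 0.312 and 0.806 CPM (-1.52, SE 0.31). The genes with the most counts fell less. HOXC10 was at 47.6, 58.5 and 52.8 CPM in 2D and 23.4, 19.9 and 20.7 CPM in 3D cells (-1.32, SE 0.08), and HOXC8 at 46.9, 44.6 and 43.0 CPM against 20.8, 18.5 and 18.9 CPM (-1.21, SE 0.07). The adjusted p-values of these 6 genes were at most 5.0e-04 (edgeR).

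In the HOXA cluster, HOXA9, the posterior gene known as a leukemia oncogene, was at 26.9, 24.7 and 27.3 CPM in 2D and at 11.2, 8.37 and 12.6 CPM in mammospheres, a log2 fold change of -1.30 (SE 0.12, adjusted p = 6.2e-08, edgeR). HOXA13, the gene of the distal limb and hindgut, was at 3.61, 4.15 and 4.56 CPM against 1.25, 1.29 and 1.08 CPM (-1.78, SE 0.19, adjusted p = 4.9e-07, edgeR). HOXA10, a regulator of uterine development, was at 3.97, 3.67 and 3.25 CPM against 2.59, 2.75 and 2.87 CPM (-0.41, SE 0.16, adjusted p = 0.0423, edgeR). All 3 genes were lower in each 3D library than in each 2D library. The HOXA10 call was lost without 2D replicate 1 (-0.34), without 2D replicate 2 (-0.39) and without 3D replicate 1 (-0.34).

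The HOXB genes moved the other way. HOXB5, a central gene expressed in developing lung and gut, was at 0.976, 2.12 and 1.08 CPM in 2D and at 5.27, 4.08 and 4.2 CPM in mammospheres, a log2 fold change of 1.68 (SE 0.25, adjusted p = 2.1e-05, edgeR). HOXB6 was at 1.04, 1.11 and 0.530 CPM against 3.51, 2.81 and 2.57 CPM (1.73, SE 0.26, adjusted p = 2.9e-05, edgeR). Both were higher in each 3D library. The most highly counted HOXB genes rose less: HOXB2, a hindbrain patterning gene, from 19.1, 17.8 and 17.1 CPM to 27.8, 26.7 and 34.5 CPM (0.72, SE 0.09), and HOXB3 from 12.5, 12.6 and 12.3 CPM to 19.1, 19.5 and 19.4 CPM (0.63, SE 0.08), with adjusted p-values of 5.5e-06 and 5.0e-06 (edgeR). HOXB8 had 8, 4 and 4 counts in 2D and 36, 28 and 36 in 3D cells, so that it passed the low-count filter through its higher group and had to come out higher, while HOXB7 passed narrowly (0.24, adjusted p = 0.0967, edgeR). These 2 genes lie outside the rule for naming genes and were chosen after their values were seen.

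Other markers moved with this comparison. Of 5 mesenchymal markers, 4 were higher in 3D cells and 1 lower. FN1 (451 against 6731 CPM), TWIST1 (63.0 against 227), ZEB1 (93.7 against 207) and VIM (1178 against 1289) rose, and CDH2 (441 against 51.2) fell. Of the epithelial markers, CDH1 fell from 1.42 CPM to 0 and KRT8 rose from 0.176 to 0.506 CPM. PECAM1 and PTPRC shifted as given above, and CDH5 averaged at most 0.0348 CPM. Their part in the HOX values was not tested.

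By position, the 2 tested anterior genes (numbers 1 to 3) were higher, the 8 central genes (4 to 8) were split into 5 higher and 3 lower, and of the 10 posterior genes (9 to 13) 8 were lower and 0 higher, against 32.0% of all genes higher and 31.7% lower. Cluster and position overlap in this count, since both anterior genes tested are HOXB genes. A central gene of the HOXC cluster can be set beside its HOXB paralog. HOXC6 fell by 1.79 on the log2 scale, whereas HOXB6 rose by 1.73.

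**Figure D3:**
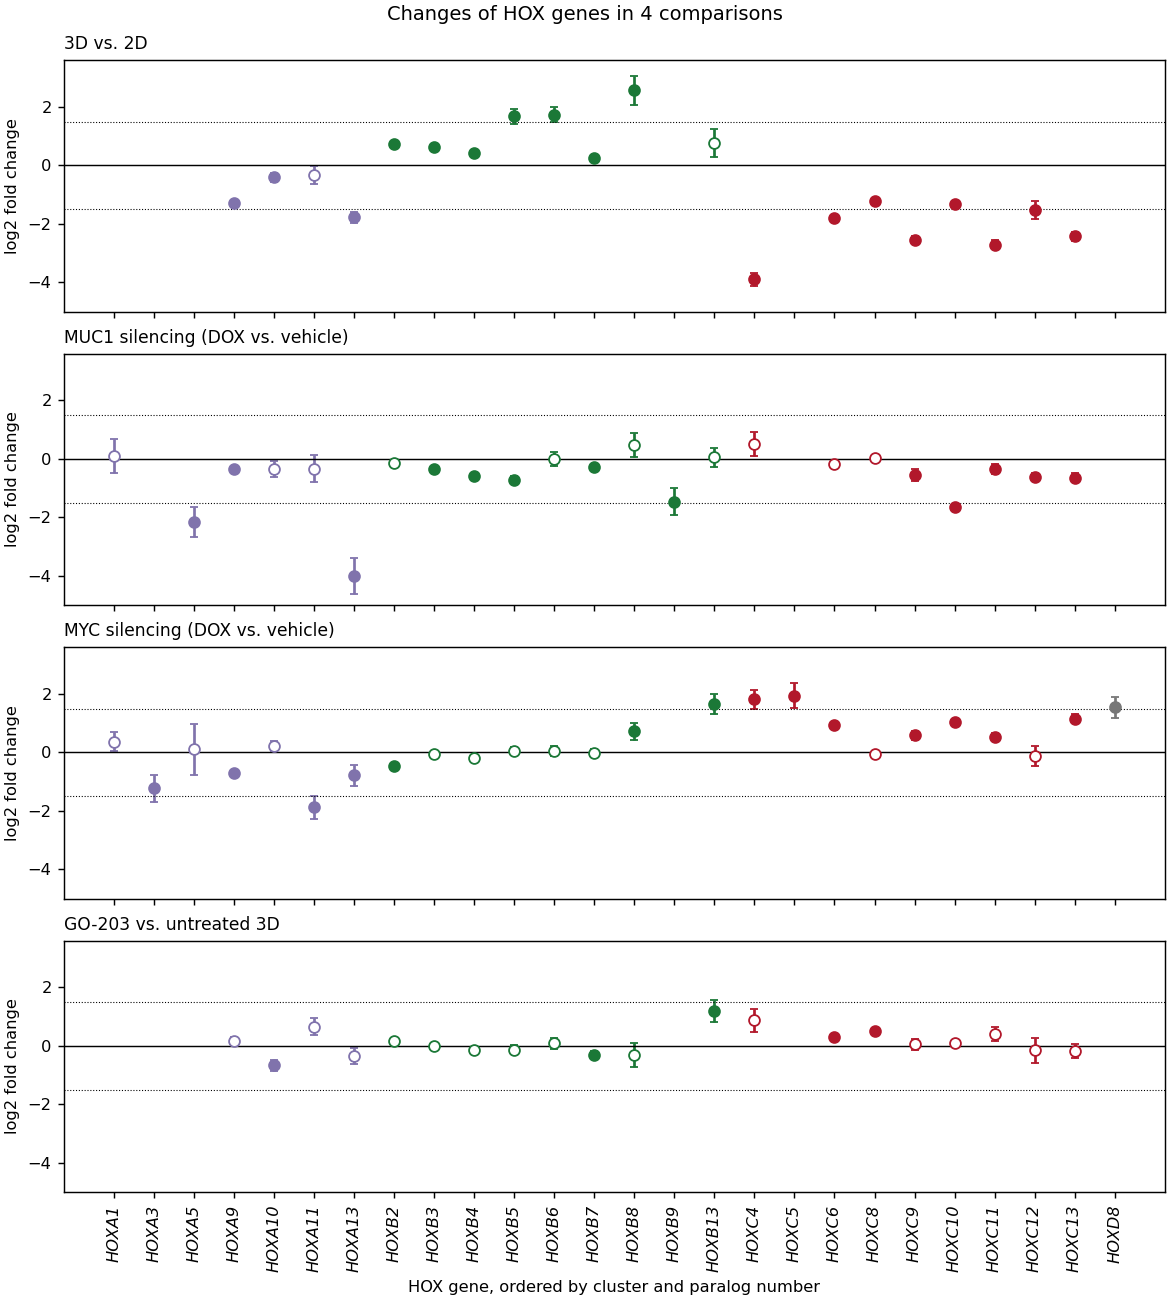
Log2 fold change with its SE (vertical axes) of each tested HOX gene in the 4 comparisons, ordered by cluster (purple HOXA, green HOXB, red HOXC, gray HOXD) and paralog number. Filled points passed an adjusted p below 0.1, open points did not, and dotted lines mark ±1.5. The HOXB genes lie above 0 and the HOXA and HOXC genes below it in 3D vs. 2D cells, HOXC10 is at -1.65 with MUC1 silencing and 1.04 with MYC silencing, and no point passes the dotted lines with GO-203.

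The vehicle-treated mammospheres of the tet lines gave further libraries to set against the same 2D cells. With the tet-MYCshRNA line in place of 3D cells, all 9 tested HOXC genes were lower (32.4% of all genes were) and 7 of 8 HOXB genes were higher (33.8% of all genes), with HOXB13 not passing. With the tet-MUC1shRNA line, 7 of 8 HOXC genes were lower (37.8% of all genes) and 7 of 9 HOXB genes higher (36.1% of all genes). The exception was HOXC12, which was counted at 4.70, 5.22 and 5.19 CPM in that line and so was higher than in 2D cells by 1.40 (adjusted p = 6.0e-07, edgeR), whereas 3D cells were lower than 2D cells. HOXB6 was not past the threshold there (0.38, adjusted p = 0.270, edgeR). In that line HOXB8, HOXB9 and HOXB13 passed the low-count filter through the mammosphere libraries alone, and HOXC4 through the 2D libraries alone. With the tet-MYCshRNA line, HOXB8 passed through the mammosphere libraries alone and HOXC5 through the 2D libraries alone. The filter favored the directions of these calls. The size of the HOXC decrease also varied between lines. HOXC9 was lower than in 2D cells by 2.61 on the log2 scale in the tet-MUC1shRNA line but by 0.80 in the tet-MYCshRNA line, and HOXC10 by 0.42 and 1.06. The untreated 3D cells and the tet-MUC1shRNA line were both at passage 6, and HOXC12 averaged 0.663 CPM in the former and 5.04 CPM in the latter with vehicle, and HOXC10 21.3 and 39.7 CPM. For the tet-MYCshRNA line at passage 8, line and passage cannot be told apart.

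The next question was which HOX genes respond to silencing MUC1 in mammospheres. The HOX genes that changed were lower with DOX, and HOXC10, the most abundant of them, had the largest change among HOX genes that averaged at least 5 CPM with vehicle. Of 23 HOX genes tested, 13 were lower (31.6% of all genes) and 0 higher (30.7% of all genes) by edgeR. Among the 13, HOXA5, HOXA13 and HOXB9 passed the low-count filter through their vehicle libraries alone and so had to come out lower. No HOX gene was higher at an unadjusted p below 0.05 or by DESeq2, but when libraries were scaled by library size alone, which moved the median of all genes by 0.17, 9 were lower and 1 higher, HOXC8 at 0.18. The median over the 23 genes was -0.34, against 0.02 for all genes. Past both thresholds, 3 HOX genes were lower (3.08% of all genes) and 0 higher (5.74% of all genes).

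HOXC10, a posterior gene of lumbar identity, lies at chr12:53985065-53990279 on the plus strand, and 7% of its exon bases are shared with a read-through transcript that has no row in the table. It was counted at 41.8, 41.3 and 36.2 CPM with vehicle and at 13.5, 12.4 and 11.2 CPM with DOX. The groups were far apart, and the log2 fold change was -1.65 (SE 0.08, adjusted p = 1.7e-13, edgeR), or -1.49 with library size alone, which is short of the fold threshold. HOXA13 was at 0.574, 0.80 and 1.06 CPM (22, 34 and 54 counts) with vehicle and at 0.0708, 0 and 0.0907 CPM (4, 0 and 4 counts) with DOX, a log2 fold change of -4.01 (SE 0.62). The DOX counts are so few that the size of this change is poorly known. HOXA5, which lies outside the rule for naming genes and was chosen after its values were seen, was at 0.365, 0.518 and 0.433 CPM with vehicle and 0.0708, 0.0835 and 0.136 CPM with DOX (-2.17, SE 0.51). Both genes passed the filter on low counts through their vehicle libraries alone and so had to come out lower, and of the 3 genes past both thresholds they support nothing beyond these values.

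The remaining HOXC genes changed little or not at all past the test. HOXC13 was at 5.74, 6.12 and 4.98 CPM with vehicle and 3.27, 3.45 and 3.90 CPM with DOX (-0.64, SE 0.14, adjusted p = 4.5e-04), and HOXC12 at 4.70, 5.22 and 5.19 CPM against 2.94, 3.59 and 3.04 CPM (-0.63, SE 0.14, adjusted p = 5.7e-04, both edgeR). Neither gene overlapped between the groups. HOXC9 (-0.54, adjusted p = 0.0361) and HOXC11 (-0.34, adjusted p = 0.0875, both edgeR) passed narrowly. The HOXC9 call was lost without vehicle replicate 1 (-0.42) or DOX replicate 3 (-0.39), and that of HOXC11 without vehicle replicate 1 or 2 or DOX replicate 1 or 3 and by DESeq2. HOXC8, the neighbour of HOXC10 in abundance, was at 31.7, 34.7 and 30.2 CPM with vehicle and 34.4, 31.6 and 30.2 CPM with DOX (0.02, SE 0.07, adjusted p = 0.837, edgeR), with full overlap. HOXC6 (-0.16, adjusted p = 0.108) and HOXC4 (0.50, adjusted p = 0.309, both edgeR) did not pass.

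Of the 9 HOXB genes tested, 5 fell (31.6% of all genes), among them HOXB9, which had only 16 to 22 counts with vehicle and 7 to 12 with DOX. HOXB9 passed the low-count filter through its vehicle libraries alone and so had to come out lower. HOXB5 was at 7.60, 9.83 and 7.16 CPM with vehicle and 5.06, 5.25 and 4.22 CPM with DOX (-0.73, SE 0.13, adjusted p = 7.5e-05, edgeR), without overlap. HOXB3 was at 23.9, 24.2 and 24.8 CPM against 17.4, 18.4 and 21.2 CPM (-0.34, SE 0.08, adjusted p = 8.9e-04, edgeR). HOXB2 (-0.13, adjusted p = 0.182), HOXB6 (-0.01, adjusted p = 0.973) and HOXB13 (0.05, adjusted p = 0.905, edgeR) did not pass. HOXA9 fell from 9.61, 11.1 and 9.44 CPM to 7.96, 8.30 and 7.06 CPM (-0.34, SE 0.10, adjusted p = 0.00724, edgeR), a call that was lost with library size alone. HOXA10 (-0.34, adjusted p = 0.307) and HOXA11 (-0.33, adjusted p = 0.553, edgeR) did not pass. Markers moved beside these values. Of 5 mesenchymal markers, 2 were higher with DOX, CDH2 (11.9 against 74.1 CPM) and VIM (1095 against 1217), and 3 were lower, ZEB1 (323 against 119), TWIST1 (173 against 73.9) and FN1 (10327 against 7153). All 3 epithelial markers tested rose, KRT8 (0.0419 against 1.34 CPM), KRT18 (0.0379 against 0.886) and CDH1 (0.0305 against 0.310), and PECAM1 fell from 4.05 to 2.98 CPM. The 3 epithelial markers passed the low-count filter through their DOX libraries alone and so had to come out higher. The part of these markers in the HOX values was not tested.

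Silencing MYC in mammospheres was the third comparison. Of the tested genes, 7 of 9 HOXC genes rose and 4 of 7 HOXA genes fell, while the HOXB genes other than HOXB2, HOXB8 and HOXB13 did not pass. Of 25 HOX genes tested, 10 were higher with DOX (30.3% of all genes) and 5 lower (28.1% of all genes). The 10 comprised 7 of 9 HOXC genes, HOXB8, HOXB13 and HOXD8. Past both thresholds, 4 were higher (7.06% of all genes) and 1 lower (3.39% of all genes). The 1 lower was HOXA11. HOXC5, among the 4, passed the low-count filter through its DOX libraries alone and so had to come out higher. HOXA3 and HOXA11, among the 5 lower, passed it through their vehicle libraries alone, which favored a lower value. The HOXC median was 0.95, the HOXA median -0.69, and the median of all genes 0.01.

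HOXC10 was counted at 25.6, 24.5 and 25.9 CPM with vehicle and at 48.3, 57.7 and 52.6 CPM with DOX, a log2 fold change of 1.04 (SE 0.09, adjusted p = 3.3e-06, edgeR). HOXC6 was at 16.8, 16 and 15.3 CPM against 28.8, 33.0 and 32.5 CPM (0.95, SE 0.09, adjusted p = 1.1e-05, edgeR). Every DOX library exceeded every vehicle library for both genes, and their DOX levels overlapped those of 2D cells. HOXC13 rose from 2.30, 2.10 and 1.80 CPM to 4.78, 4.04 and 5.20 CPM (1.15, SE 0.16), HOXC9 from 10.6, 8.46 and 7.22 CPM to 11.9, 14.6 and 13.1 CPM (0.58, SE 0.15), and HOXC11 from 3.83, 3.64 and 3.56 CPM to 5.04, 5.61 and 5.40 CPM (0.52, SE 0.13), with adjusted p-values of at most 0.00746 (edgeR). HOXC4 had the highest HOXC change among genes above 1 CPM, from 0.386, 0.788 and 1.01 CPM to 1.81, 2.81 and 3.08 CPM (1.81, SE 0.33, adjusted p = 0.0010, edgeR). HOXC5, which was chosen after its values were seen, was past both thresholds at 0.348 to 0.585 CPM with DOX, but it had at most 12 counts in a vehicle library, and 67.3% of its exon bases are shared with read-through transcripts. It passed the low-count filter through its DOX libraries alone and so had to come out higher. HOXC8 (-0.05, adjusted p = 0.611) and HOXC12 (-0.13, adjusted p = 0.789, both edgeR) did not pass, with overlapping groups.

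**Figure D4:**
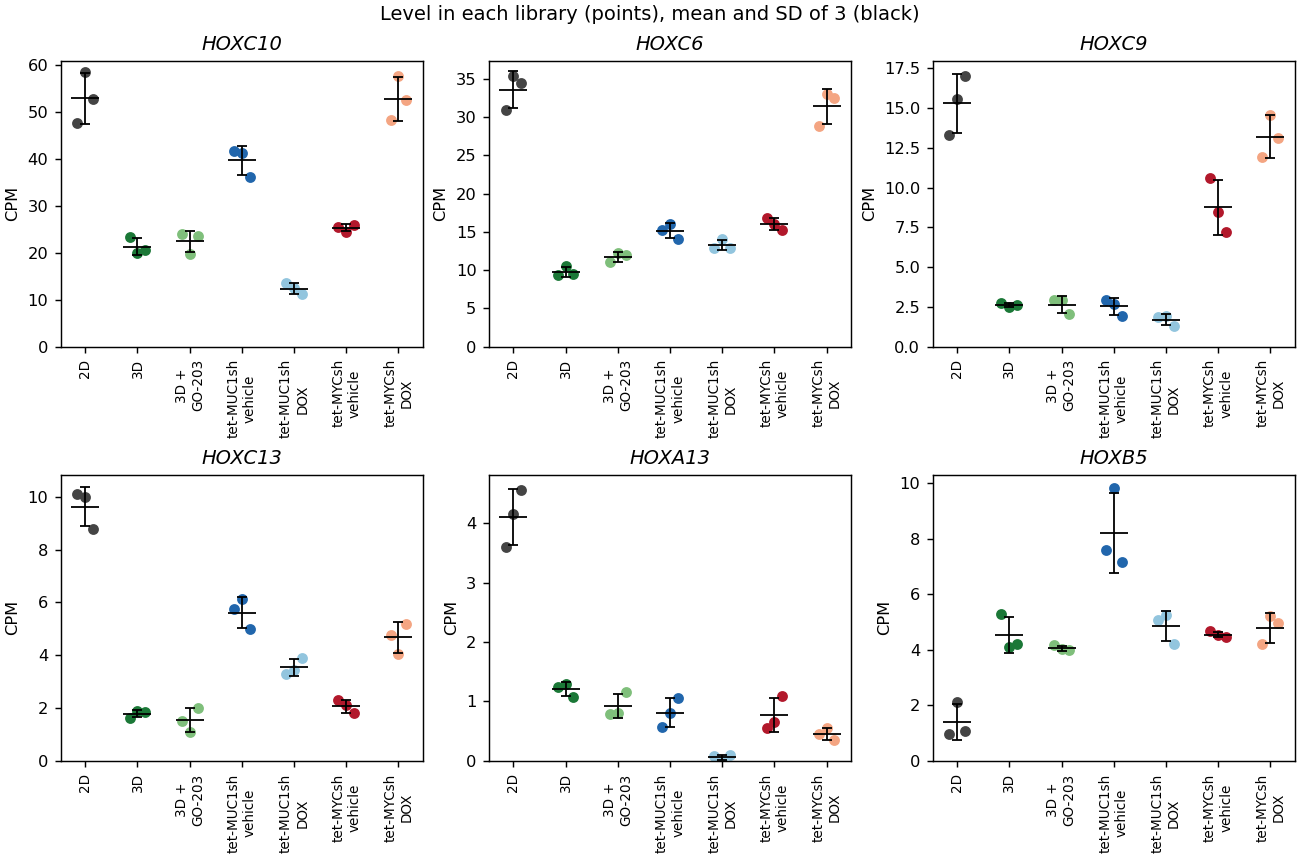
CPM (vertical axes, from 0) of HOXC10, HOXC6, HOXC9, HOXC13, HOXA13 and HOXB5 in each of 21 libraries (points), with the mean and SD of 3 in black. HOXC10 averages 53.0 CPM in 2D, 21.3 in 3D, 39.7 and 12.4 in the tet-MUC1shRNA line with vehicle and DOX, and 25.3 and 52.9 in the tet-MYCshRNA line.

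Beyond the HOXC cluster, HOXB13, the posterior gene known from prostate lineage cells, rose from 0.319, 0.295 and 0.359 CPM to 0.726, 1.5 and 0.885 CPM (1.66, SE 0.35, adjusted p = 0.00233, edgeR). HOXD8 rose from 0.319, 0.266 and 0.212 CPM to 0.968, 0.826 and 0.585 CPM (1.54, SE 0.35, adjusted p = 0.00378, edgeR). Both were higher in every DOX library, at low counts. In the HOXA cluster, HOXA9 fell from 15.5, 14.7 and 15.5 CPM to 10.3, 9.0 and 9.54 CPM (-0.69, SE 0.10, adjusted p = 2.1e-04, edgeR). HOXA11 fell from 0.865, 0.985 and 0.718 CPM to 0.101, 0.293 and 0.300 CPM (-1.88, SE 0.39, adjusted p = 0.00234, edgeR), and 27.2% of its exon bases lie opposite the antisense gene HOXA11-AS. Its DOX libraries (5, 17 and 19 counts) would not have passed the low-count filter alone, which favored a lower value. HOXA13 passed narrowly (-0.79, SE 0.36, adjusted p = 0.0933, edgeR), and the call was lost without vehicle replicate 2 (-0.90) or 3 (-0.48), without DOX replicate 1 (-0.78) or 3 (-0.62), and with the replicate block. HOXB2 fell from 33.3, 32.2 and 31.8 CPM to 23.1, 24.8 and 22.7 CPM (-0.48, SE 0.08, adjusted p = 5.3e-04, edgeR), while HOXA10 (0.22), HOXB3 (-0.04), HOXB5 (0.06) and HOXB6 (0.05) did not pass, with adjusted p-values from 0.329 to 0.820 (edgeR).

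Markers also moved with MYC silencing. Of 5 mesenchymal markers, 4 were higher with DOX and 1 lower. FN1 (5175 against 12466 CPM), TWIST1 (125 against 223), ZEB1 (249 against 282) and CDH2 (22.1 against 26.0) rose and VIM (2463 against 2211) fell. PECAM1 rose from 6.74 to 9.36 CPM, and MUC1 itself from 69.0 to 167 CPM (1.25, adjusted p = 5.1e-06, edgeR). Their part in the HOX values was not tested.

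The upstream sequences of HOXA9, which was lower in 3D than in 2D cells and with DOX in both tet lines, and of HOXA13 are shown because the CACGTG letters of an E-box are those that MYC and MAX are known to bind. Of the 39 annotated HOX genes, 20 had an entry in the RefSeq promoter table (GRCh38.p14), among them none of HOXC6 and HOXC8 to HOXC13. The windows are the 250 bases before a RefSeq transcript start of HOXA9 (chr7:27165538-27165787) and of HOXA13 (chr7:27200092-27200341). The HOXA9 window lies inside the gene as GENCODE annotates it (chr7:27162438-27175180), since that gene has a start further upstream there, and the HOXA13 window abuts the annotated start. Both are written 5′ to 3′ on the minus strand, with CACGTG and TATAAA in capitals.
HOXA9: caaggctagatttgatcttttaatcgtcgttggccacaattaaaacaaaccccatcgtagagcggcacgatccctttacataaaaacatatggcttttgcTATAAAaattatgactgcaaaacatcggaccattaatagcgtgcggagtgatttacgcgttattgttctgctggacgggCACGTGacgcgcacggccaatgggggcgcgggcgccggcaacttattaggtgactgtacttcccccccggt
HOXA13: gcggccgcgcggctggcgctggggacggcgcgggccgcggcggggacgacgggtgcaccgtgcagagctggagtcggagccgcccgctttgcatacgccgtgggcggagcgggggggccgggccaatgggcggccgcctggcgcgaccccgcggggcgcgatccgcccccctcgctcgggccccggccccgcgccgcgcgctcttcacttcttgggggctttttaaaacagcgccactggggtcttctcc
The HOXA9 window holds 1 CACGTG and 1 TATAAA, and the HOXA13 window, in which 78% of bases are G or C against 48.8% for HOXA9, holds neither. Read on either strand, CACGTG was found in 6.34% and TATAAA in 10.7% of 35116 promoter windows of the same length in that table. Counted by gene, since some HOX genes have several windows, 8 and 4 of the 20 held them in at least 1 window. These matches describe letters and not bound sites.

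Whether HOX genes responded differently to silencing MUC1 and silencing MYC was tested directly as a difference of log2 fold changes over the 12 libraries. Of 26 HOX genes tested, 17 differed (52.9% of all genes tested did). On MUC1 silencing 14 had the lower value (26.9% of all genes) and 3 the higher (26.0% of all genes). Of the 26, 8 also had a difference above 1.5 (16.2% of all genes). HOXC10 differed by -2.71 (SE 0.13, adjusted p = 9.2e-12, edgeR), since it was lower in each MUC1-silenced and higher in each MYC-silenced library than in the respective vehicle libraries. HOXC13 differed likewise by -1.81 (SE 0.21, adjusted p = 1.2e-06, edgeR). Smaller differences of the same sign were found for HOXC6 (-1.12), HOXC9 (-1.12) and HOXC11 (-0.88), with adjusted p-values of at most 0.00297 (edgeR). HOXC4 differed by -1.32 (adjusted p = 0.0463, edgeR), but not past the threshold without tet-MUC1shRNA vehicle replicate 2 (-0.90). For HOXC8 the difference was 0.06 (SE 0.11, adjusted p = 0.707, edgeR).

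HOXA13 differed by -3.25 (SE 0.77, adjusted p = 0.00182) and HOXB13 by -1.62 (SE 0.49, adjusted p = 0.0112, both edgeR). The HOXA13 value rests on 4, 0 and 4 counts in the MUC1-silenced libraries and ran from -3.81 without DOX replicate 3 to -2.53 without DOX replicate 2 of that line. Of the 3 genes with the higher value on MUC1 silencing, HOXA11 was above 1.5, at 1.54 (SE 0.60, adjusted p = 0.0432, edgeR), a call that was lost without tet-MUC1shRNA DOX replicate 2 (1.15) or tet-MYCshRNA vehicle replicate 2 (1.42). The other two were HOXB2 at 0.34 (adjusted p = 0.0320), lost without tet-MUC1shRNA vehicle replicate 3 (0.28), and HOXA9 at 0.33 (adjusted p = 0.0640, both edgeR), lost under 8 of 12 omissions of a single library (0.28 to 0.32). HOXB5 differed by -0.80 (SE 0.20, adjusted p = 0.00265, edgeR). Line, passage and target differ together in this comparison, and the log2 fold change of the targeted transcript was -2.06 for MUC1 and -0.62 for MYC. MUC1 itself moved in opposite directions, falling on its own silencing and rising by 1.25 on MYC silencing, while MYC rose by 0.25 on MUC1 silencing (adjusted p = 5.0e-05, edgeR). The part of these shifts in the HOX differences was not tested.

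With GO-203, HOX genes were called about as often as genes in general. Of 20 tested, 3 were higher (11.1% of all genes) and 2 lower (12.9% of all genes), and 0 were past both thresholds in either direction (0.498% of all genes were higher and 0.260% lower). By edgeR at an unadjusted p below 0.05 and by DESeq2, the count past both thresholds was likewise 0. HOXC8 was at 20.8, 18.5 and 18.9 CPM in untreated and 27.8, 26.0 and 27.0 CPM in treated 3D cells (0.51, SE 0.07, adjusted p = 2.8e-05, edgeR), without overlap. HOXC6 rose by 0.30 (adjusted p = 0.0464) and HOXB13 by 1.19 (adjusted p = 0.0305, both edgeR). Both were near the threshold. The HOXB13 call was lost without untreated replicate 1 (1.08) or treated replicate 3 (0.98), and the HOXC6 call without untreated replicate 1 (0.26) or 3 (0.27) or treated replicate 2 (0.25) or 3 (0.29). HOXA10 fell from 2.59, 2.75 and 2.87 CPM to 1.56, 1.62 and 1.87 CPM (-0.67, SE 0.19, adjusted p = 0.0165, edgeR), without overlap, and HOXB7 fell by 0.30 (adjusted p = 0.0861, edgeR). In all, the number called was 2 without untreated replicate 1, 3 without treated replicate 2 and 2 without treated replicate 3, against 5 with all libraries. The untreated 3D libraries are the same as in 3D vs. 2D.

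HOXC10 was at 23.9, 19.8 and 23.6 CPM in GO-203-treated cells, a range that spanned the untreated one (0.11, SE 0.08, adjusted p = 0.429, edgeR). The difference between MUC1 silencing and GO-203 was -1.76 for HOXC10 (SE 0.12, adjusted p = 3.6e-12) and -3.67 for HOXA13 (SE 0.65, adjusted p = 4.7e-05, both edgeR). The latter rests on the same 4, 0 and 4 counts and ran from -4.22 without tet-MUC1shRNA DOX replicate 3 to -2.94 without DOX replicate 2. Line, control and treatment differ together in this comparison. HOXC10 averaged 39.7 CPM in vehicle-treated tet-MUC1shRNA cells and 21.3 CPM in untreated 3D cells. Of 24 HOX genes, 11 differed, a share close to the 44.9% of all genes tested. By edgeR 11 had the lower value on MUC1 silencing (24.1% of all genes) and 0 the higher (20.8% of all genes), with 0 higher also at an unadjusted p below 0.05 and by DESeq2. HOXC10 and HOXA13 were also above 1.5 (8.59% of all genes). HOXC8 differed by -0.48 (adjusted p = 2.3e-04) and HOXC6 by -0.45 (adjusted p = 0.00491, both edgeR).

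The partners of HOX proteins were counted in the same libraries. Of 10 TALE cofactor genes listed, 9 were tested, and in 3D vs. 2D cells 2 were higher and 5 lower (32.0% and 31.7% of all genes). PBX3 and MEIS2 fell in 3D cells, by 1.18 and 0.97 on the log2 scale, and PKNOX1 was at 27.5 and 27.7 CPM (0.01, adjusted p = 0.927, edgeR).

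MEIS3, a TALE partner, moved with HOXC10 in direction in both tet lines. It was at 8.27, 8.21 and 7.87 CPM with vehicle and 2.48, 2.67 and 2.04 CPM with DOX in the tet-MUC1shRNA line (-1.72, SE 0.13, adjusted p = 4.3e-10, edgeR). In the tet-MYCshRNA line it was at 4.19, 3.25 and 3.80 CPM with vehicle and 19.6, 20.7 and 24.0 CPM with DOX (2.50, SE 0.13, adjusted p = 1.7e-07, edgeR). The groups were separate in both lines. Over the 9 TALE genes tested, 3 were higher and 5 lower on MUC1 silencing (30.7% and 31.6% of all genes), 3 higher and 2 lower on MYC silencing (30.3% and 28.1%), and 1 higher and 2 lower with GO-203 (11.1% and 12.9%). TGIF2, a TALE repressor, fell by 1.92 on the log2 scale with MYC silencing, from 33.8 to 9.04 CPM.

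**Figure D5:**
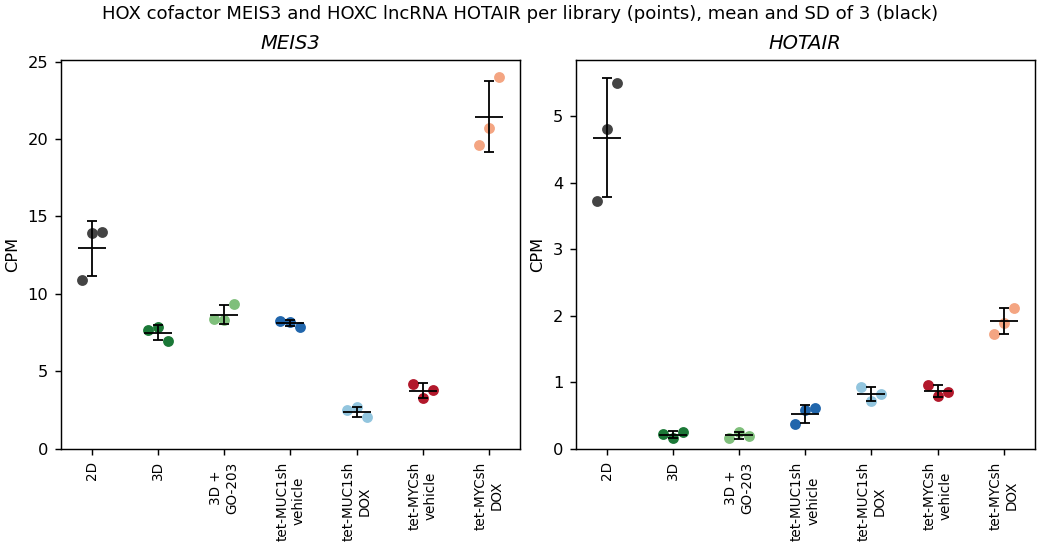
CPM (vertical axes, from 0) of the TALE gene MEIS3 and the HOXC long non-coding RNA HOTAIR in each of 21 libraries (points), with the mean and SD of 3 in black. MEIS3 averages 2.40 CPM in MUC1-silenced and 21.4 in MYC-silenced cells, and HOTAIR averages 4.67 CPM in 2D cells.

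Long non-coding RNAs (lncRNAs) are transcribed from within the HOX clusters, and 16 of 18 listed were in the table. Of the 9 tested in 3D vs. 2D cells, 6 were lower and 1 higher (31.7% and 32.0% of all genes). HOTAIR, which is transcribed antisense from the HOXC cluster and is known to act with Polycomb complexes, was at 3.72, 4.80 and 5.50 CPM in 2D and 0.228, 0.156 and 0.248 CPM in 3D cells (-4.45, SE 0.26, adjusted p = 3.5e-10, edgeR). HOXC13-AS (-5.62) and HOXC-AS2 (-2.64) were lower as well, while HOXB-AS1 was higher (1.58). The lncRNAs that fell past both thresholds thus included members of the HOXC cluster, and the 1 that rose lies in the HOXB cluster. HOTAIR, HOXC13-AS and HOXA10-AS, among the 6 lower, passed the low-count filter through their 2D libraries alone. That favored a lower value, so these calls support nothing beyond the values. On MYC silencing 5 of 9 were higher and 2 lower (30.3% and 28.1% of all genes), with HOTAIR higher by 1.13 (adjusted p = 9.6e-04, edgeR). On MUC1 silencing 1 of 8 was higher and 2 lower (30.7% and 31.6%). The 1 higher was HOTAIR (0.65, adjusted p = 0.0999, edgeR), and 0 were higher at an unadjusted p below 0.05 or by DESeq2. With GO-203, 0 of 7 passed by edgeR, also 0 at an unadjusted p below 0.05 and 0 by DESeq2, against 11.1% of all genes higher and 12.9% lower.

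Among 31 Polycomb and trithorax genes, all tested, 15 were higher and 12 lower in 3D vs. 2D cells (32.0% and 31.7% of all genes), and 10 and 12 when MUC1 was silenced, near the background of 30.7% and 31.6%. The counts were 9 and 14 when MYC was silenced (30.3% and 28.1%) and 2 and 6 with GO-203 (11.1% and 12.9%). The 2 past both thresholds in 3D vs. 2D cells were the Polycomb subunits PHC1, which fell from 6.04 to 0.840 CPM (-2.85), and PHC2, which rose from 58.1 to 293 CPM (2.33). EZH2, the catalytic subunit that methylates lysine on histone H3, was lower in 3D cells (-0.42) and on MYC silencing (-0.64), and higher on MUC1 silencing (0.32). Of the retinoic acid and CDX genes, 7 of 11 were higher and 1 lower in mammospheres than in 2D (32.0% and 31.7% of all genes), 2 of 12 higher and 6 lower when MUC1 was silenced (30.7% and 31.6%), and 9 of 12 higher and 1 lower on MYC silencing (30.3% and 28.1%). RARB, a retinoic acid receptor and itself a retinoic acid target, averaged 0.793 CPM in 2D and 8.24 CPM in 3D cells (3.35, adjusted p = 9.3e-11, edgeR). ALDH1A3, which makes retinoic acid, and CYP26B1, which degrades it, rose as well, by 2.32 and 2.43 on the log2 scale. On MUC1 silencing RXRA, the common partner of the retinoic acid receptors, and DHRS3 fell, by 1.63 and 1.55, and ALDH1A3 rose by 1.56 on MYC silencing. With GO-203, 4 of 11 were higher and 3 lower (11.1% and 12.9%). Of the ParaHox genes and other homeobox genes near HOX clusters, 2 were tested in 3D vs. 2D cells and 1 was lower, MEOX2 at -3.07.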

How the data were processed

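Total RNA from BT-549 cultures grown in triplicate was made into stranded, paired-end mRNA libraries and sequenced. Per the study's methods, reads were aligned to GRCh38 with STAR, and the authors deposited raw counts per gene made with featureCounts. The submitters' processing notes also name CASAVA 1.8.2, STAR 2.7.3a and DESeq2. The annotation release, strand setting and treatment of read pairs are not given in the sources used here. Of the deposited counts between 1 and 10, 69.0% to 72.5% per group were even, and if both reads of a pair were counted, the printed counts stand for fewer fragments and the chi-square ratios below are inflated, which was not tested. Blank cells, which covered the same genes in every library of a block, were read as 0. Library totals were 38026597 to 99751717 counts. P-values measure the spread between cultures of 1 cell line, and replicate libraries differed by more than counting noise (chi-square per degree of freedom 4.36 to 52.8 over 21 pairs).

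With R 4.3.3, lowly counted genes were dropped by filterByExpr, libraries scaled by TMM, and each comparison fitted on its own 6 libraries with the quasi-likelihood test of edgeR 4.0.16, with Benjamini-Hochberg adjustment over all genes tested and SE taken as the log2 fold change over the square root of F. Differences between comparisons were interactions over 12 libraries. CPM used TMM factors over all 21 libraries. Gene identifiers without version were matched to symbols (42252 of 42339 had one), and positions and exon lengths were those of GENCODE release 44. Named HOX genes had a mean of at least 1 CPM in a group and passed both thresholds in a comparison, or were the 2 most highly counted of their cluster. Members and lists were chosen with earlier results of these data known. Alternatives were DESeq2 1.42.0, RLE factors, library size alone, no low-count filter, a minimum of 10 counts per library, a joint fit of all 21 libraries, a replicate block, an adjusted p below 0.05, an absolute fold change above 1.5, vehicle-treated tet lines in place of 3D cells, and leaving out each library in turn. The fits of 3D vs. 2D cells and of MUC1 minus MYC silencing were tested on simulated counts. Tables were read with data.table (version 1.17.8). Some results on cofactor genes are not reported here.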

Additional observations from a re-analysis of the deposited data

Results flagged for a closer look

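For HOX genes that averaged at least 1 CPM in a group, these differences between effects passed a test of the difference itself and were above 1.5 on the log2 scale. Between MUC1 and MYC silencing, HOXC10 differed by -2.71 (adjusted p = 9.2e-12), HOXC13 by -1.81 (adjusted p = 1.2e-06), HOXA13 by -3.25 (adjusted p = 0.00182), HOXB13 by -1.62 (adjusted p = 0.0112) and HOXA11 by 1.54 (adjusted p = 0.0432, all edgeR). Between MUC1 silencing and GO-203, HOXC10 differed by -1.76 (adjusted p = 3.6e-12) and HOXA13 by -3.67 (adjusted p = 4.7e-05, both edgeR). Of these, HOXC10 and HOXC13 had opposite calls with the silencing of MUC1 and of MYC. Both HOXA13 values rest on 4, 0 and 4 counts in the MUC1-silenced libraries, and leaving out 1 library moved them to -3.81 to -2.53 and -4.22 to -2.94, so their size is poorly known. In the MUC1 silencing comparison itself HOXA13 passed the low-count filter through its vehicle libraries alone, so its fall there adds no support. The 2 tet lines differ in passage as well as in shRNA, and between MUC1 silencing and GO-203 line, control and treatment differ together.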

How the results depend on the processing

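Over the alternatives, the HOX genes that passed the test in 3D vs. 2D cells numbered within 1.5 times of 18. With at least 10 counts in every library, 8 passed on MUC1 silencing, 10 differed between MUC1 and MYC silencing, and past both thresholds there were 1, 3 (MYC silencing), 3 (MUC1 minus MYC) and 1 (MUC1 minus GO-203), since fewer genes were then tested. An absolute fold change above 1.5 gave 7, 12 and 2 for MUC1 silencing, MYC silencing and GO-203. All 21 libraries in one fit gave 5 for MUC1 silencing and 4 for MUC1 minus GO-203, and library size alone 6 that passed for the latter. Leaving out each library gave 2 to 5 for GO-203.

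Values that changed sign were HOXC12 in 3D vs. 2D (1.40 with tet-MUC1shRNA vehicle cells). On MUC1 silencing they were HOXB2 (0.04), HOXB6 (0.15) and HOXC6 (0.01) with library size alone, HOXB6 (0.04) with at least 10 counts and HOXC8 (-0.00) with all 21 libraries, and with GO-203 HOXB3 (-0.02, all 21 libraries). With single libraries left out, the ranges were -0.08 to 0.07 for HOXB6, -0.17 to 0.42 for HOXB13 and -0.03 to 0.07 for HOXC8 on MUC1 silencing, -0.01 to 0.14 for HOXB5, -0.06 to 0.15 for HOXB6 and -0.42 to 0.14 for HOXC12 on MYC silencing, and -0.02 to 0.07 for HOXB3, -0.03 to 0.22 for HOXB6, -0.05 to 0.22 for HOXC9, -0.59 to 0.08 for HOXC12 and -0.41 to 0.00 for HOXC13 with GO-203. None of these genes passed the test in that comparison except HOXC12 in 3D vs. 2D cells, and the cause was not tested.

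Same-numbered libraries had a mean r of -0.19 to 0.03 in their deviations in 3 comparisons. With GO-203 it was 0.12, with all pairs above 0 and 2 of 3 above 0.1, short of pairing the cultures by the rule used. With the replicate block, 17, 14, 13 and 7 HOX genes passed in 3D vs. 2D, MUC1 silencing, MYC silencing and GO-203, and 16 and 12 in the 2 differences. With GO-203 the block added HOXA11 (0.67) and HOXB2 (0.17). Past both thresholds the block left 10, 3, 5, 0, 7 and 2. Precision for genes under 1 CPM is limited by their few counts.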
